A study of Homo sapiens with 6 samples.

Results

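The genes described are 51 that encode the machinery which licenses and fires DNA replication origins and copies DNA at the fork. They were taken by symbol from a list, and all 51 were found among the 12227 genes of the deposited table. RNA was measured by sequencing in PC3 cells, an established human prostate cancer line grown in DMEM with fetal bovine serum. The control group is 3 libraries from PC3 cells with control shRNA, labelled WT, and the knockdown group is 3 libraries from PC3 cells with shRNA against VprBP, labelled VprBP knockdown. VprBP is the product of DCAF1: it recruits substrates to a cullin 4 ubiquitin ligase, and the study is about its kinase activity and inhibitors of it. The labels do not say whether the numbers 1 to 3 stand for hairpins, cultures or repeat libraries, nor how long the hairpins were expressed, so p-values measure only the spread between these libraries, which may be technical.

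Replication begins before S phase, when the origin recognition complex (ORC), CDC6 and CDT1 load the MCM helicase onto DNA in an inactive form. In S phase the CDC7 kinase and its activator DBF4, with cyclin-dependent kinases, let CDC45 and the GINS complex join MCM and turn it into the moving helicase. Polymerase alpha with primase then starts each strand, polymerase epsilon extends the leading strand and polymerase delta the lagging strand, held on DNA by the PCNA clamp. Transcription of many of these genes rises at the G1/S transition under E2F transcription factors, which bind a short motif near the start site.

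Promoter sequence was read from RefSeq (GRCh38.p14, the build the deposited coordinates are on) for the 44 members that matched by symbol, in windows of 300 bases from 250 before to 50 after each start. The E2F motif was searched as TTTCCCGC, TTTCGCGC, TTTGCCGC or TTTGGCGC on both strands, where matches on opposite strands may overlap. It was found in at least 1 promoter of 22 of the 44 members, against 6.89% of the 9422 listed genes with a promoter and 3.99% of all 27305 genes in the promoter table. Of the 35116 promoters of this length, 3.32% held it, and of the 58 member promoters 37.9% did. A match is a run of letters and not a measured binding site. Forms of the motif other than the words searched were not counted, so a promoter without a match may hold one. The sequences below run 5′ to 3′ from 200 bases before to 30 after the start site, with the matched letters in capitals. The first 4 belong to the members with the largest rises, MCM6 has the most matches, and CHTF18, with no match, has the lowest log2 fold change of the 51.
POLE4, chr2:74958443-74958672, plus strand: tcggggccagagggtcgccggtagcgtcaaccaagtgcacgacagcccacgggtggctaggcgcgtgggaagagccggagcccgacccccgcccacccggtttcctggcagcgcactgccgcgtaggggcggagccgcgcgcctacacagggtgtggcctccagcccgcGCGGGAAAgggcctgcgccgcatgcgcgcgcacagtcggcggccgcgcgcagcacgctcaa
CDC7, chr1:91500912-91501141, plus strand: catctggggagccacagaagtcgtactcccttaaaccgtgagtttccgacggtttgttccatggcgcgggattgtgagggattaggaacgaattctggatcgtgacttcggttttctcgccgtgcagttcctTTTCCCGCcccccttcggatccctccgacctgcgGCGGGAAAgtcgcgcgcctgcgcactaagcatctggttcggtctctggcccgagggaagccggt
CLSPN, chr1:35769949-35770178, minus strand: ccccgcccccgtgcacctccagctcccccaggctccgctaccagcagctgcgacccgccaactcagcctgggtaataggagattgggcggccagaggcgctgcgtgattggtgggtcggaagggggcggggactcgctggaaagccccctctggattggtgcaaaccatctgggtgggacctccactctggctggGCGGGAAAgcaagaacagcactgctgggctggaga
CDC6, chr17:40287679-40287908, plus strand: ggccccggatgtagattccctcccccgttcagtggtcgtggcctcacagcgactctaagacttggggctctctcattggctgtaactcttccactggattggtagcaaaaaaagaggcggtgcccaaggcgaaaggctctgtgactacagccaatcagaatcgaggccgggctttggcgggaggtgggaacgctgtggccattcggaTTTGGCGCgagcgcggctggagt
MCM6, chr2:135876414-135876643, minus strand: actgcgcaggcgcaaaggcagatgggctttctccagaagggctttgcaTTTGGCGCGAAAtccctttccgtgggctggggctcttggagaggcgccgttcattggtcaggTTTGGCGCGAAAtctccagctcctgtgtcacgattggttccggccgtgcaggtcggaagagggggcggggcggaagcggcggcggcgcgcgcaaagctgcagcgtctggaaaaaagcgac
CHTF18, chr16:788420-788649, plus strand: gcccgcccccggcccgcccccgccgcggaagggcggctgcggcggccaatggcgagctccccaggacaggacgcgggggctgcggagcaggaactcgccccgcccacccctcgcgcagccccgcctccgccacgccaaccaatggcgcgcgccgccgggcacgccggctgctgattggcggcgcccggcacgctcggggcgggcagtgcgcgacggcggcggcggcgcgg

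Counted from the start site, the matches begin at base -31 in POLE4, -68 and -34 in CDC7, -5 in CLSPN and 8 in CDC6. Those of MCM6 begin at -152, -148, -90 and -86 and form 2 overlapping pairs. CDC7 has a second RefSeq promoter upstream of the one shown, without a match. Of 33 matched members that rose, 18 had an E2F match, and of 11 that were not called, 4 had one (CDT1, ORC3, POLA1 and POLE). The median log2 fold change was 0.30 over the 22 members with a match and 0.24 over the 22 without. The CHR element TTTGAA, known from genes of mitosis and searched in the same way, was found in 2 of the 44 members (4.55%) against 13.4% of listed genes.

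Replication genes were modestly higher in knockdown cells. Of the 51 members 39 rose (76.5%, limma adjusted p under 0.05), where 60.9% of all listed genes were called, 33.0% higher and 27.8% lower. None of the 51 was called lower by limma, 1 was lower at an unadjusted p under 0.05 (RFC1), and limma-voom called 1 lower (RFC1). The median log2 fold change was 0.25, against 0.02 over all listed genes, and 46 of the 51 values were above 0. In bulk RNA, a larger share of cells in S phase and more transcript per cell cannot be told apart.

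The rises were small. Only POLE4, CDC7 and CLSPN rose by more than 1.5-fold, which is 5.88% of the members, near the 5.89% of all listed genes that did so. Against a fold of at least 1.2, limma's treat test called 10 members: POLE4, CDC7, CLSPN, CDC6, GINS3, FEN1, GINS2, RPA3, GINS1 and PCNA. By the same test, 1144 of the 12227 listed genes were higher and 1187 lower. The knockdown and control libraries did not overlap for 39 members, 38 of them higher and RFC1 lower, where 64.8% of all listed genes did not overlap and 35.1% were higher without overlap. Of the 39 members that rose, 36 were called in all 14 alternative analyses other than the treat test. The exceptions were MCM7, PRIM2 and POLE2.

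**Figure D1:**
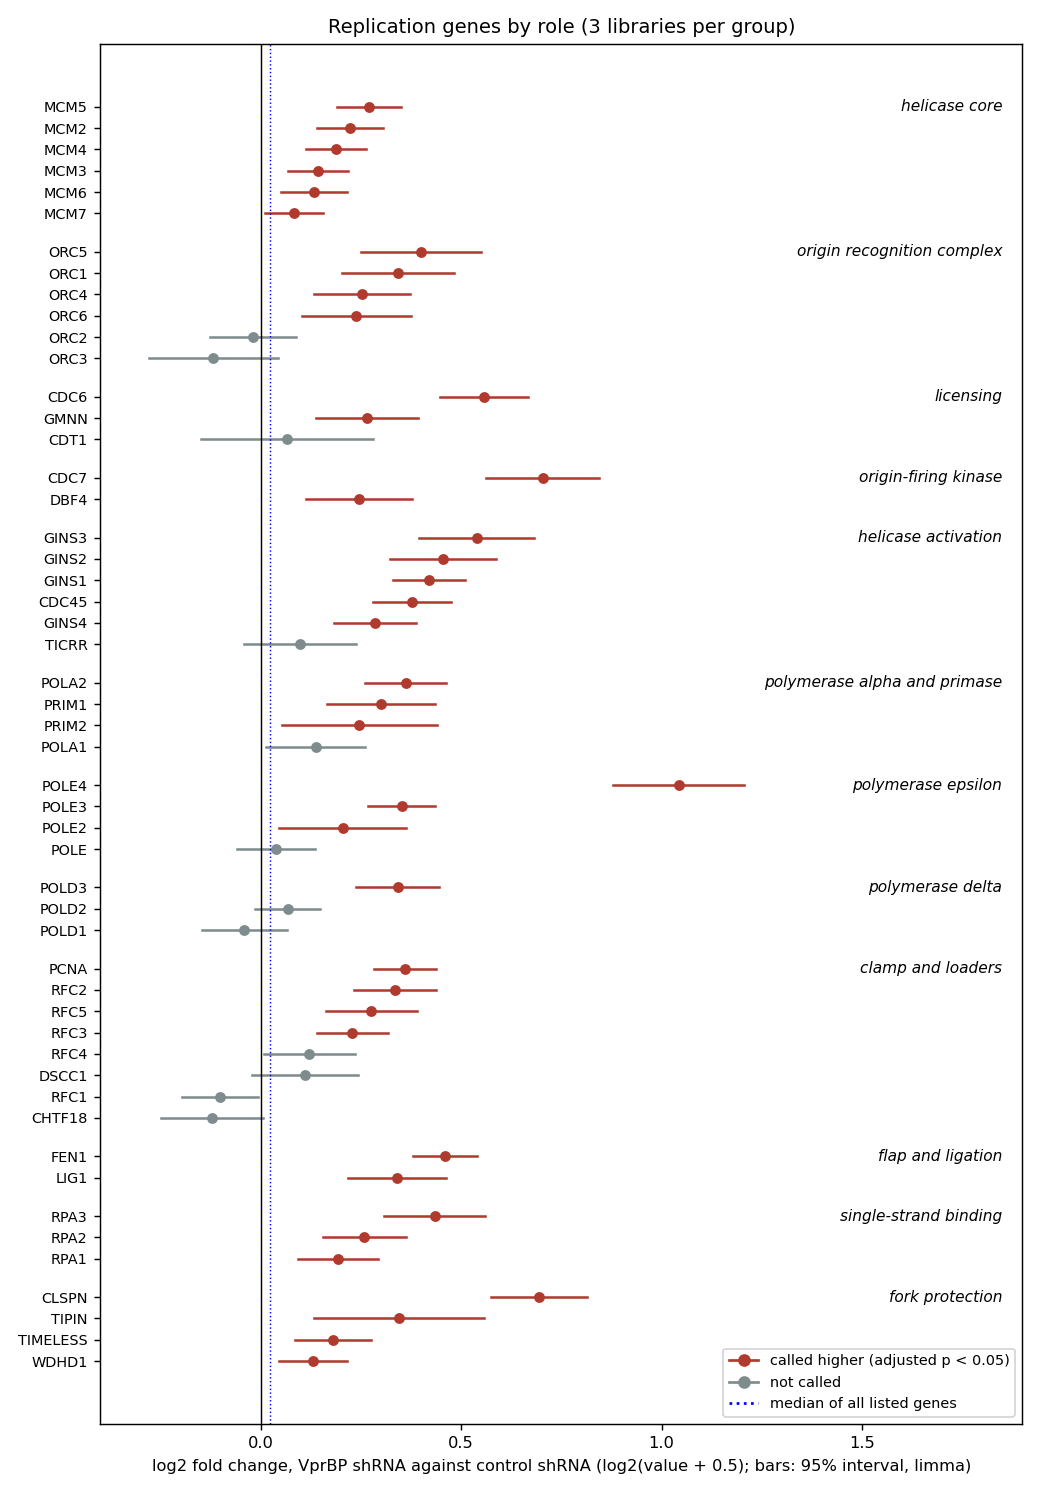
Log2 fold change of each of the 51 genes, VprBP shRNA against control shRNA, with its 95% interval from limma, ordered within roles. Red marks the 39 genes called higher, grey the 12 not called, and the dotted line the median of all listed genes at 0.02. POLE4 stands apart at 1.04.

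DCAF1, the targeted gene, was at 79.4, 78.5 and 78.7 in control replicates 1 to 3 and at 38.5, 41.1 and 40.2 in knockdown replicates 1 to 3, so that 50.6% of the control level remained (log2 fold change -0.97, SE 0.05, limma adjusted p = 3.56e-11; exact permutation test p = 0.1, two-sided, the smallest that 3 libraries against 3 allow). Values throughout are the deposited scaled signal, and triplets are given in the order of replicates 1 to 3. Estimated depth was 22981878 to 39633860 reads per library. The epithelial and PC3 markers EPCAM, KRT8, KRT18 and CD44 were at 246 to 555 in control and 268 to 745 in knockdown libraries, and VIM was at 15.3 to 17.8 and 67.2 to 68.5. All 5 of these markers were called higher in knockdown cells (limma, median log2 fold change 0.61), with folds of 1.11 for EPCAM, 1.64 for KRT8 and 4.06 for VIM. Of 9 markers of leukocytes, fibroblasts and endothelium, 3 were listed: CD68 and COL1A1 were at 20.6 to 28.7, and PECAM1 was at 53.0 to 55.2 in control and 22.6 to 24.0 in knockdown libraries. The other 6 were not analysed here. The part of other cell types in the results was not tested.

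All 6 subunits of the MCM2 to MCM7 helicase rose, each by little. MCM5 was at 111, 107 and 110.5 in control cells and at 133, 132 and 131 in knockdown cells, a 1.21-fold rise (log2 fold change 0.27, SE 0.04, limma adjusted p = 1.23e-05). Every knockdown library was above every control library, and the 3 knockdown values lay close together. MCM2 (log2 fold change 0.22), MCM4 (0.19), MCM3 (0.14) and MCM6 (0.13) followed, with limma adjusted p-values from 0.00012 to 0.00756 and no overlap between groups. MCM7, the most abundant of the 6 per length, was at 282, 274 and 282 in control and 298, 305 and 285 in knockdown libraries (log2 fold change 0.08, SE 0.03, limma adjusted p = 0.0485). Knockdown replicate 3 lay only just above the highest control library. The MCM7 call was lost in 10 of the 15 alternatives, among them both other scalings (adjusted p = 0.151 and 0.166) and the fits without each control library or without knockdown replicate 1 or 2 (adjusted p from 0.0843 up to 0.18; adjusted p over the 15 alternatives 0.00613 to 1).

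Within the origin recognition complex, 4 of 6 subunits rose and 2 were not called. ORC5, an ATPase-fold subunit of the core, was at 22.9, 20.8 and 19.8 in control and 28.1, 26.8 and 29.3 in knockdown libraries, a 1.33-fold rise with no overlap (log2 fold change 0.40, SE 0.07, limma adjusted p = 0.000125). ORC1, the ATPase subunit whose protein is degraded in S phase, rose 1.28-fold from 22.2, 22.9 and 22.4 to 26.8, 29.1 and 30.2 (log2 fold change 0.34, limma adjusted p = 0.000278). ORC4 and ORC6 had log2 fold changes of 0.25 and 0.24. ORC3 was at 25.1, 28.3 and 26.6 in control and 23.1, 23.1 and 27.5 in knockdown libraries (log2 fold change -0.12, SE 0.08, limma adjusted p = 0.194; 95% interval -0.28 to 0.04). Its groups overlapped because knockdown replicate 3 was higher than the rest of its group, and without that library ORC3 was called lower (log2 fold change -0.20, limma adjusted p = 0.0208; adjusted p over the 15 alternatives 0.0208 to 1). ORC2 was at 47.6, 47.7 and 50.02 in control and 46.6, 47.2 and 49.7 in knockdown libraries and had a log2 fold change of -0.02 (95% interval -0.13 to 0.09; limma adjusted p = 0.764).

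Of the 3 genes of MCM loading, CDC6 and GMNN rose and CDT1 was not called; differences between the 3 were not tested. CDC6, the ATPase that joins ORC to load MCM, was at 42.6, 44.6 and 42.1 in control and 62.2, 61.5 and 67.2 in knockdown libraries, a 1.48-fold rise (mean 43.1 ± 1.36 against 63.6 ± 3.10, SD, n = 3 libraries; log2 fold change 0.56, SE 0.05, limma adjusted p = 1.22e-07). The lowest knockdown library was well above the highest control library. CDT1, which brings MCM to the origin, was at 36.2, 32.4 and 34.8 in control and 41.1, 39.8 and 28.5 in knockdown libraries (log2 fold change 0.06, SE 0.10, limma adjusted p = 0.6; 95% interval -0.15 to 0.28). Knockdown replicates 1 and 2 were above all controls and replicate 3 was below all of them. Without replicate 3, CDT1 was called higher (log2 fold change 0.23, limma adjusted p = 0.00309; adjusted p over the 15 alternatives 0.00309 to 1). GMNN, which encodes geminin, the inhibitor of CDT1, rose from 33.9, 37.1 and 33.5 to 40.0, 41.4 and 44.5 (log2 fold change 0.27, limma adjusted p = 0.00121).

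CDC7, the kinase that phosphorylates MCM at origins, had the second largest rise of the 51. It was at 18.6, 20.1 and 17.9 in control and 30.1, 31.5 and 31.5 in knockdown libraries, 1.64-fold higher with no overlap (mean 18.9 ± 1.09 against 31.0 ± 0.842, SD, n = 3 libraries; log2 fold change 0.70, SE 0.07, limma adjusted p = 1.49e-07). DBF4, its activating subunit, was at 31.8, 31.4 and 31.8 in control and 38.5, 34.4 and 40.2 in knockdown libraries (1.19-fold; log2 fold change 0.24, SE 0.06, limma adjusted p = 0.00296). The DBF4 control values were nearly equal, and all knockdown values were above them. The difference between the rises of CDC7 and DBF4 was not tested.

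**Figure D2:**
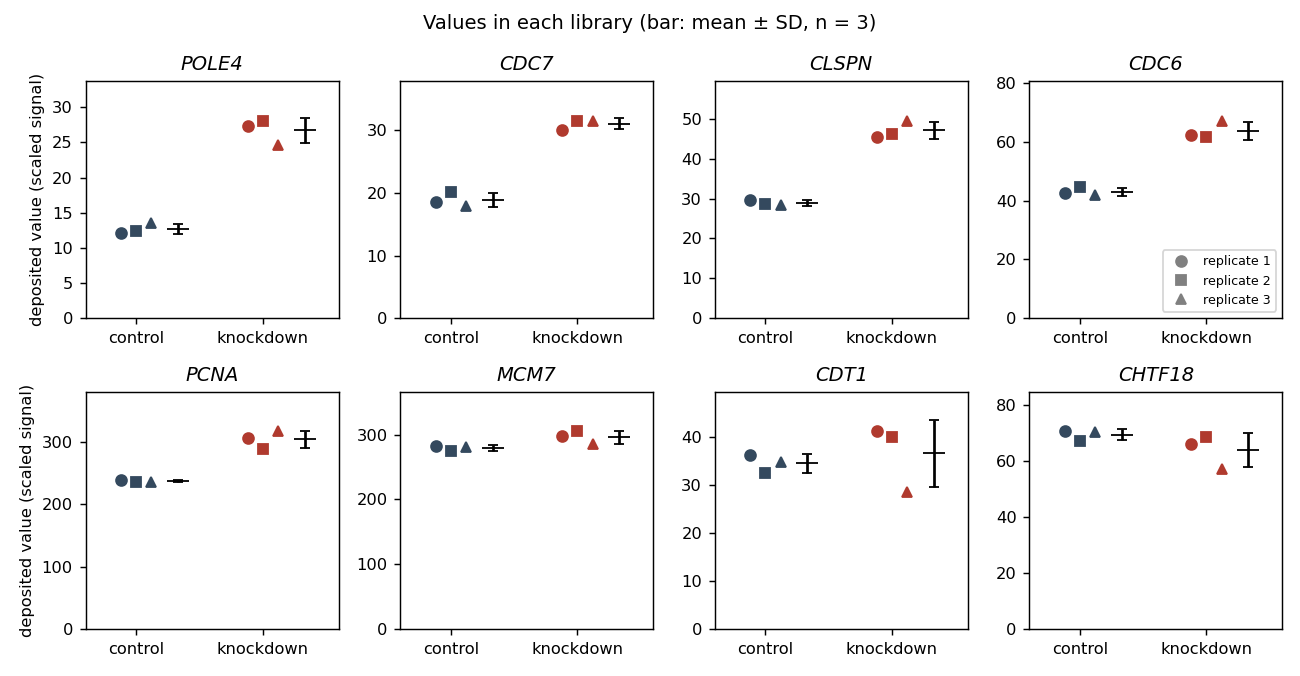
Deposited values of 8 replication genes in each library, with the mean ± SD of 3 libraries per group beside the points and axes that start at 0. POLE4, CDC7, CLSPN, CDC6 and PCNA separate fully, MCM7 barely, and CDT1 and CHTF18 have knockdown replicate 3 (triangle) below all other libraries.

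Of the factors that activate the helicase, CDC45 and all 4 GINS subunits rose. GINS3 was at 18.9, 21.0 and 20.9 in control and 31.3, 28.8 and 28.99 in knockdown libraries, 1.46-fold higher (log2 fold change 0.54, SE 0.07, limma adjusted p = 4.16e-06). GINS2 (1.37-fold), GINS1 (1.34-fold), CDC45 (1.30-fold) and GINS4 (1.22-fold) rose without overlap, with log2 fold changes from 0.29 to 0.45 and limma adjusted p-values from 3.32e-07 to 8.80e-05. TICRR, which encodes treslin, a protein needed to bring CDC45 to origins, was at 33.7, 37.1 and 32.9 in control and 38.6, 34.1 and 38.3 in knockdown libraries (log2 fold change 0.10, SE 0.07, limma adjusted p = 0.207; 95% interval -0.04 to 0.24). Its groups overlapped. TICRR shares 589 exon bases with KIF7 on the opposite strand, and KIF7 was lower in knockdown cells (mean 44.5 against 26.9, limma adjusted p = 7.75e-08).

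Of the catalytic subunits of the 3 polymerases, POLA1, POLE and POLD1, none passed limma's test (adjusted p = 0.0519, 0.499 and 0.497), and POLA1 had an unadjusted p under 0.05. Limma-voom called none of them either, while POLA1 was called higher in 2 of the 15 alternatives, given below. In polymerase alpha and primase, 3 of 4 genes rose. POLA2, the regulatory subunit, was at 43.8, 45.1 and 43.4 in control and 56.4, 55.9 and 58.0 in knockdown libraries (1.29-fold; log2 fold change 0.36, SE 0.05, limma adjusted p = 7.27e-06). All knockdown libraries were higher. PRIM1, the catalytic primase subunit, had a log2 fold change of 0.30 (limma adjusted p = 0.000675). PRIM2, the large primase subunit, was at 33.9, 31.7 and 30.8 in control and 35.1, 33.9 and 46.6 in knockdown libraries (log2 fold change 0.25, SE 0.09, limma adjusted p = 0.0285). Its groups overlapped, the high value was that of knockdown replicate 3, and without it the call was lost (log2 fold change 0.10, limma adjusted p = 0.17), as it was without control replicate 2 or 3 (adjusted p = 0.0705 and 0.0802) and with limma-voom (adjusted p = 0.0753; adjusted p over the 15 alternatives 0.00685 to 1). POLA1, the catalytic polymerase subunit, was at 42.1, 47.6 and 41.8 in control and 46.8, 47.7 and 50.03 in knockdown libraries (log2 fold change 0.14, SE 0.06, limma adjusted p = 0.0519). Without control replicate 2, the highest control, POLA1 was called higher (log2 fold change 0.20, limma adjusted p = 0.00905; adjusted p over the 15 alternatives 0.00905 to 1). It was also called higher when only genes with a mean of at least 5 were tested.

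POLE4 had the largest rise of all 51 genes. It encodes a small histone-fold subunit of polymerase epsilon that pairs with POLE3, and POLE4 (ENSG00000115350.12) spans 74958643 to 74970128 of chromosome 2 (hg38, plus strand). POLE4 was at 12.2, 12.5 and 13.5 in control and 27.3, 28.1 and 24.7 in knockdown libraries, 2.10-fold higher (mean 12.7 ± 0.683 against 26.7 ± 1.80, SD, n = 3 libraries; log2 fold change 1.04, SE 0.08, limma adjusted p = 7.49e-09; 95% interval 0.88 to 1.21). Knockdown replicate 3 was the lowest of its group and still above every control. Its partner POLE3 was at 101, 102 and 99.1 in control and 128, 126 and 133 in knockdown libraries, 1.28-fold higher (log2 fold change 0.35, limma adjusted p = 1.02e-06). POLE2 rose 1.15-fold (log2 fold change 0.20, limma adjusted p = 0.0259), a call lost without control replicate 1 (0.152), knockdown replicate 1 (0.0554) or knockdown replicate 3 (0.0841; adjusted p over the 15 alternatives 0.0128 to 1). POLE, the catalytic subunit, was at 81.4, 85.5 and 84.7 in control and 84.5, 91.0 and 83.0 in knockdown libraries, overlapping (log2 fold change 0.04, SE 0.05, limma adjusted p = 0.499; 95% interval -0.06 to 0.13).

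In polymerase delta, 1 of 3 genes rose. POLD3, an accessory subunit that binds PCNA, was at 48.1, 50.7 and 52.5 in control and 63.3, 63.5 and 65.1 in knockdown libraries (1.27-fold; log2 fold change 0.34, SE 0.05, limma adjusted p = 1.59e-05), without overlap. POLD1, the catalytic subunit, was at 109, 105 and 105 in control and 106, 110.3 and 95.003 in knockdown libraries (log2 fold change -0.04, SE 0.05, limma adjusted p = 0.497; 95% interval -0.15 to 0.07). Knockdown replicate 3 was the lowest of the 6 values. POLD2 was at 185, 181 and 192 in control and 196, 201 and 187 in knockdown libraries (log2 fold change 0.07, limma adjusted p = 0.142), and without knockdown replicate 3 it was called higher (log2 fold change 0.095, limma adjusted p = 0.0301; adjusted p over the 15 alternatives 0.0262 to 1).

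The sliding clamp rose, and its loader subunits split. PCNA, the clamp, was at 239, 236 and 235 in control and 306, 289 and 317 in knockdown libraries, 1.28-fold higher (mean 237 ± 1.98 against 304 ± 14.0, SD, n = 3 libraries; log2 fold change 0.36, SE 0.04, limma adjusted p = 3.82e-07). All knockdown libraries were above the controls, which were nearly equal. Of the replication factor C loader, the small subunits RFC2, RFC5 and RFC3 rose, with log2 fold changes of 0.33, 0.28 and 0.23 and limma adjusted p-values from 1.63e-05 to 0.000299. RFC4 was at 53.8, 61.4 and 55.8 in control and 63.0, 63.0 and 60.0 in knockdown libraries (log2 fold change 0.12, SE 0.05, limma adjusted p = 0.0605) and was called higher without control replicate 2 or knockdown replicate 3 (adjusted p = 0.0112 and 0.0277; adjusted p over the 15 alternatives 0.0112 to 1). RFC1, the large subunit, was at 65.1, 67.8 and 66.7 in control and 61.6, 60.6 and 63.7 in knockdown libraries (log2 fold change -0.10, SE 0.05, limma adjusted p = 0.0601; 95% interval -0.20 to -0.01). Every knockdown library was below every control, and RFC1 was called lower under library-size scaling, median-of-ratios scaling and limma-voom (adjusted p = 0.0236, 0.0222 and 0.0225), without knockdown replicate 3 (0.0301) and after a GC correction (0.00256; adjusted p over the 15 alternatives 0.00256 to 1).

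CHTF18 and DSCC1 belong to an alternative loader that is tied to sister chromatid cohesion, and neither was called. CHTF18 was at 70.7, 67.3 and 70.6 in control and 66.2, 68.8 and 57.1 in knockdown libraries (log2 fold change -0.12, SE 0.06, limma adjusted p = 0.089; 95% interval -0.25 to 0.00), with knockdown replicate 3 the lowest. It was called lower under library-size scaling (0.0498), median-of-ratios scaling (0.0426) and without knockdown replicate 2 (0.0245; adjusted p over the 15 alternatives 0.0245 to 1), and its sign turned after a GC correction (log2 fold change 0.039, adjusted p = 0.387). CHTF18 shares 142 exon bases with RPUSD1 on the opposite strand, which was higher in knockdown cells (mean 58.5 against 71.2, limma adjusted p = 0.00087). DSCC1 was at 65.8, 67.5 and 58.7 in control and 66.7, 65.1 and 75.7 in knockdown libraries (log2 fold change 0.11, limma adjusted p = 0.136).

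Both genes of Okazaki fragment maturation rose. FEN1, the nuclease that removes flaps, was at 105, 107 and 106 in control and 151, 143 and 144 in knockdown libraries, 1.38-fold higher (log2 fold change 0.46, SE 0.04, limma adjusted p = 2.82e-08). LIG1, the ligase that seals the nick, was at 35.8, 32.9 and 32.7 in control and 42.5, 44.8 and 41.4 in knockdown libraries, 1.27-fold higher (log2 fold change 0.34, SE 0.06, limma adjusted p = 9.35e-05). In both, all knockdown libraries were higher. The 3 subunits of replication protein A, which coats single-stranded DNA, rose as well. RPA3, the smallest, was at 30.2, 29.3 and 28.7 in control and 39.1, 38.2 and 42.7 in knockdown libraries (1.36-fold; log2 fold change 0.43, SE 0.06, limma adjusted p = 1.01e-05), and RPA1, the largest, at 117, 111 and 119.7 in control and 131, 125 and 142 in knockdown libraries (1.15-fold; log2 fold change 0.19, SE 0.05, limma adjusted p = 0.00203). RPA2 lay between them, with a log2 fold change of 0.26, and none of the 3 had overlapping groups.

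CLSPN led the genes that protect the fork, all 4 of which rose. CLSPN encodes claspin, which carries the checkpoint signal from ATR to CHK1 and sustains fork speed, and was at 29.7, 28.6 and 28.4 in control and 45.4, 46.3 and 49.5 in knockdown libraries, 1.63-fold higher (mean 28.9 ± 0.697 against 47.1 ± 2.19, SD, n = 3 libraries; log2 fold change 0.69, SE 0.06, limma adjusted p = 2.28e-08). The groups were far apart. TIPIN and TIMELESS, which form a complex at the fork, rose 1.28-fold and 1.14-fold (log2 fold changes 0.34 and 0.18, limma adjusted p = 0.00717 and 0.00223). WDHD1, which links polymerase alpha to the helicase, was at 143, 140.2 and 139 in control and 154, 147 and 161 in knockdown libraries, 1.10-fold higher (log2 fold change 0.13, SE 0.04, limma adjusted p = 0.0103), with no overlap.

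Levels were compared between genes only after division by the length of 1 GENCODE 29 transcript per gene (value per kilobase), an approximation because the authors' gene lengths are not known here. In control cells PCNA was the highest, at 174 per kilobase, followed by MCM7 at 90.6 and POLD2 at 86.1. ORC4 was the lowest, at 4.46. Within the MCM complex, the levels per kilobase of MCM5, MCM6, MCM2 and MCM4 were 31.0 to 38.3, and those of MCM3 and MCM7 were 62.0 and 90.6. Within polymerase epsilon, POLE4 was at 10.2 per kilobase in control cells, beside POLE at 10.7, POLE2 at 13.1 and POLE3 at 46.0. In knockdown cells POLE4 was at 21.4, above POLE at 11.0 and POLE2 at 15.1 and below POLE3 at 58.8. For CDC7 and DBF4 the levels per kilobase were 5.70 and 8.11 in control cells and 9.37 and 9.65 in knockdown cells.

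**Figure D3:**
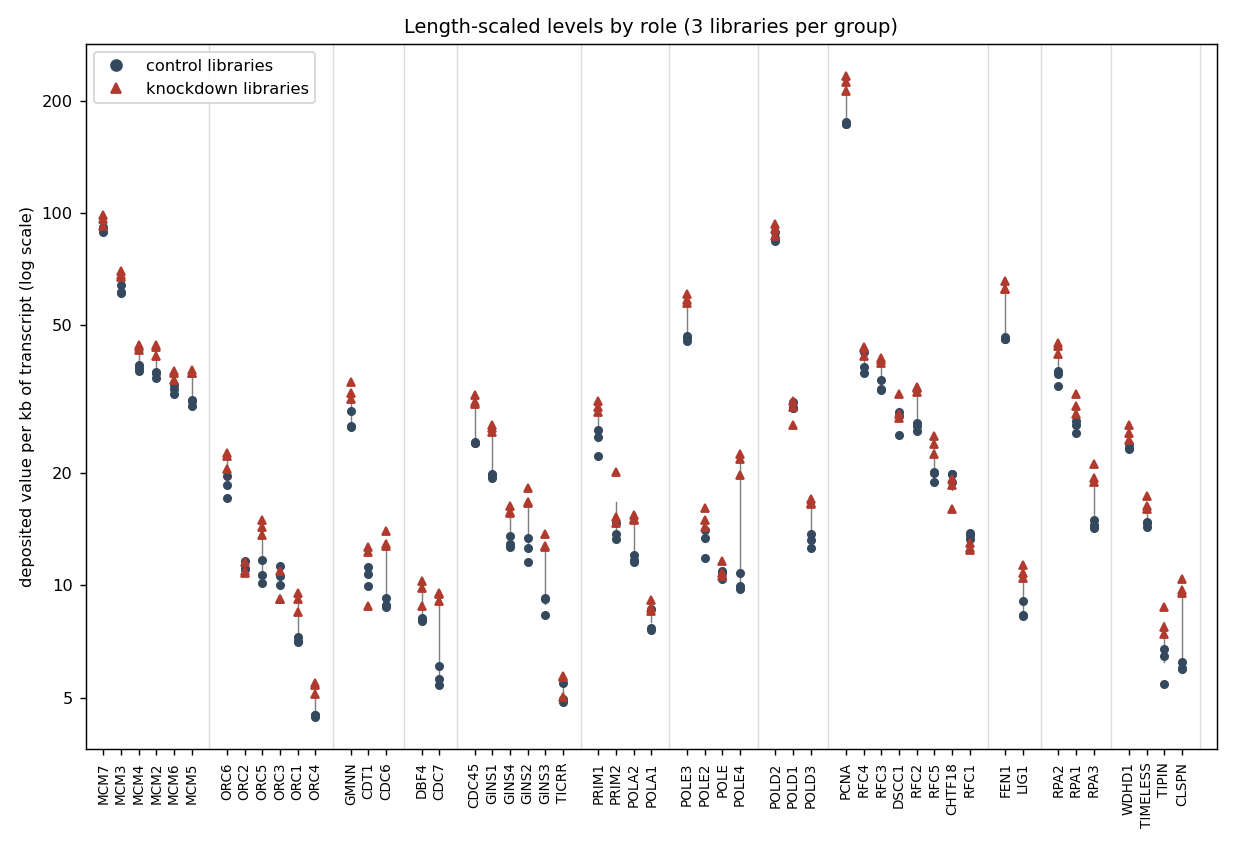
Deposited value per kilobase of transcript (log axis) for the 51 genes, grouped by role and ordered by control level, with the 3 control (circles) and 3 knockdown (triangles) libraries. PCNA is highest and ORC4 lowest in control cells, and POLE4 moves from 10.2 to 21.4 per kilobase.

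In each group 1 library stood apart from the other 2 in its relation to GC content, knockdown replicate 3 and control replicate 2. Knockdown replicate 3 held the highest value of the 3 knockdown libraries for 34 of the 51 members (66.7%), against 40.5% of all listed genes, and the members' median log2 difference from the control mean was 0.29 there, 0.25 in replicate 1 and 0.20 in replicate 2. Its deviation from the group mean moved with the GC content of the transcript, with Spearman's rho of -0.57 across the 51 members and -0.52 across 12012 listed genes, whereas rho across the members was 0.43 and 0.48 for knockdown replicates 1 and 2. Among the controls, replicate 2 had the same sign as knockdown replicate 3, with rho of -0.34 across the members and -0.38 across the 12012 listed genes, and replicates 1 and 3 had 0.12 and 0.21 across the members. These are descriptions across genes, which share the libraries and are not independent. Each deviation is taken from the mean of its own group, so the rho values within a group also depend on each other. CDT1, POLD1 and CHTF18, with the most GC-rich transcripts of the 51 (64.9%, 65.0% and 69.1% GC), were lowest in that library. Without knockdown replicate 3, 40 members rose and 2 were lower (ORC3 and RFC1), where 4017 of all 12227 listed genes were higher and 3388 lower. After a GC correction of each library, an alternative chosen after seeing the data, 40 rose and 2 were lower, again ORC3 and RFC1. Of the 12012 listed genes in that fit, 3934 were higher and 3812 lower. Transcript length also varied with the fold change: rho was -0.32 across the members and -0.19 across the 12012 listed genes. Across the listed genes, the deviations of knockdown replicates 1 to 3 had rho with length of -0.31, 0.05 and 0.18. Those of control replicates 1 to 3 had -0.03, 0.08 and -0.05. Across the members, the libraries ranged from -0.09 to 0.03. The median transcript length was 3084 bases for the 39 members that rose and 3536 for the 12 not called. The part of length in the differences was not tested.

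**Figure D4:**
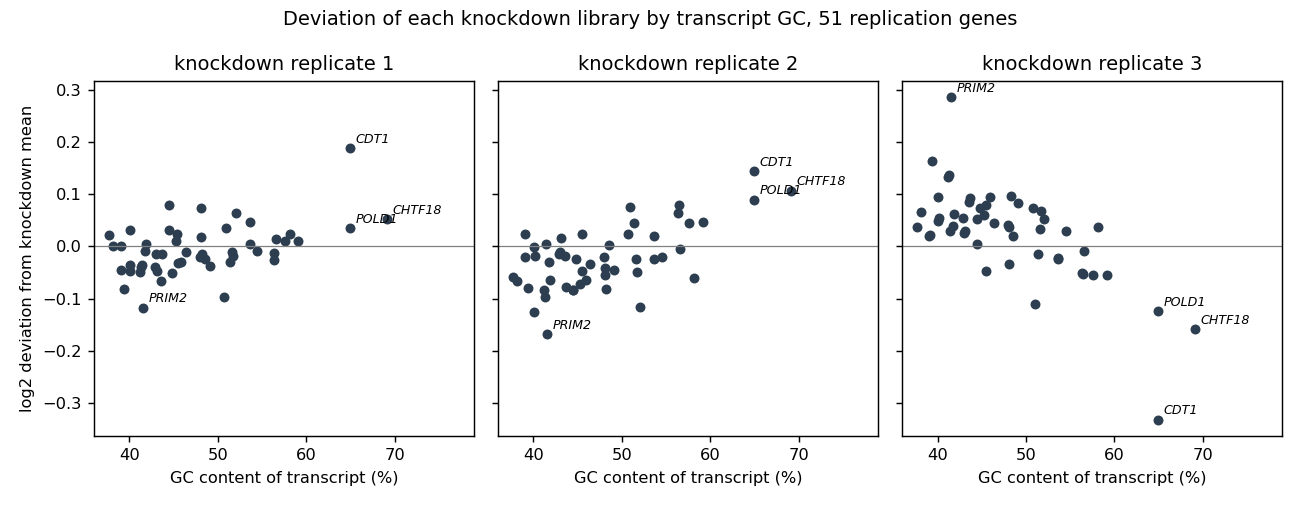
Log2 deviation of each knockdown library from the mean of the 3 knockdown libraries, against GC content of the transcript, for the 51 replication genes. In replicate 3 the points fall with GC (Spearman's rho -0.57), with PRIM2 high and CDT1, CHTF18 and POLD1 low. In replicates 1 and 2 the points rise with GC. The 3 deviations of a gene are taken from their own mean, so the panels depend on each other.

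Other replication genes moved in both directions. Of 36 further genes that act at origins, forks and replicated chromatin, 14 rose, 8 were lower and 14 were not called, so that 38.9% rose, near the 33.0% of all listed genes, with a median log2 fold change of 0.09. PCLAF, which encodes a PCNA-binding protein, was at 47.4, 49.2 and 43.7 in control and 72.6, 68.4 and 81.1 in knockdown libraries (log2 fold change 0.66, SE 0.06, limma adjusted p = 1.54e-07). DONSON, which helps deliver GINS to origins, had a log2 fold change of 0.58, and TRAIP, a ubiquitin ligase of the replisome, one of 0.57 (limma adjusted p = 3.87e-07 and 8.15e-06). All knockdown libraries exceeded all controls in these 3 genes. TOP1, the topoisomerase that relieves torsion ahead of the fork, was lower, at 299, 296 and 287 in control and 216, 227 and 239 in knockdown libraries (log2 fold change -0.37, SE 0.04, limma adjusted p = 5.17e-07). The helicase gene FBH1 (log2 fold change -0.39, limma adjusted p = 2.21e-05) and CHTF8 (-0.31, limma adjusted p = 0.000461), the subunit that joins CHTF18 and DSCC1 in the alternative loader, were also lower.

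Of the 51 members, 18 are in a published S phase signature of single cells. In this subset 16 rose and the median log2 fold change was 0.32, and of the 33 members outside it 23 rose with a median of 0.23. The 25 genes of that signature that are not members had 20 higher, 1 lower and a median of 0.40. Of the 54 genes of the matching G2/M signature, 37 rose (68.5%), 4 were lower and 13 were not called, with a median of 0.20. By library, the G2/M median was 0.19, 0.17 and 0.24 in knockdown replicates 1 to 3, and that of the S phase non-members 0.36, 0.36 and 0.40, so both were highest in replicate 3, as the members' median was. Whether the lists differ from each other was not tested, and they were chosen with earlier results of these data known.

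**Figure D5:**
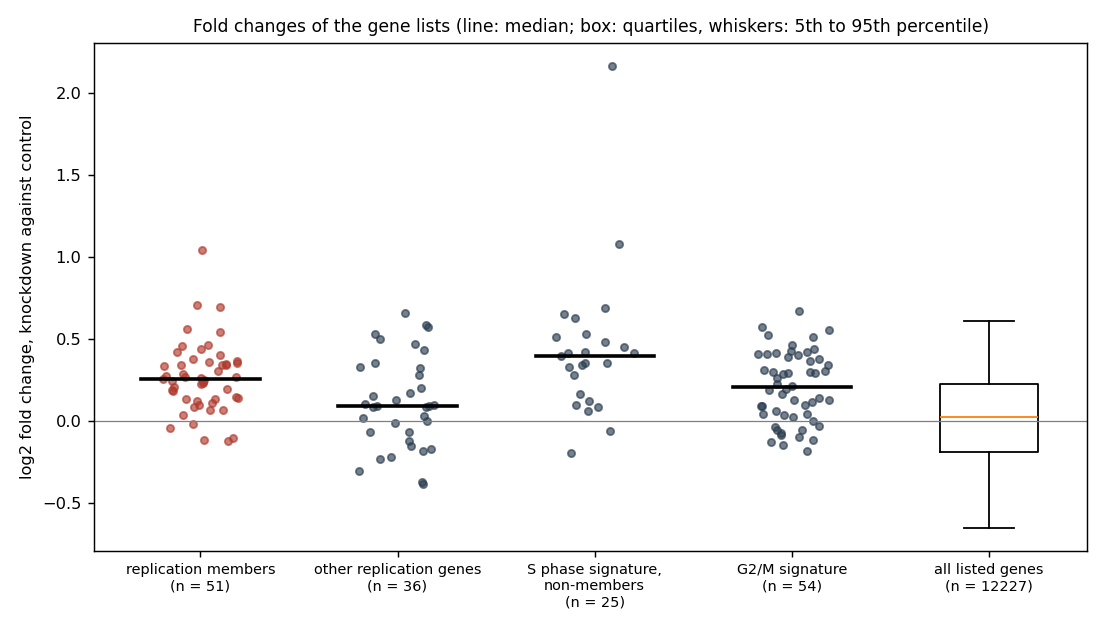
Log2 fold change, knockdown against control, of each gene in 4 lists, with the median as a line, and of all listed genes as a box of quartiles with whiskers at the 5th and 95th percentiles. Medians are 0.25 for the 51 members, 0.09 for 36 other replication genes, 0.40 for 25 S phase genes and 0.20 for 54 G2/M genes, beside 0.02 for all listed genes.

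The sources used here do not say whether the authors counted reads by strand. In GENCODE 29, 15 of the 51 members share exon bases with another listed gene, 12 of them with a gene on the opposite strand, so some reads may belong to either gene. For MCM7 the partner is AP4M1 (392 shared bases, mean 12.4 in control and 12.9 in knockdown cells). FEN1 shares 166 bases with TMEM258, whose means were 52.8 and 53.8, and 49 with FADS2 on its own strand, at 253 and 309. POLA2 shares 2012 bases with AP000944.2 on its own strand, which was at 5.96 and 4.15.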

How the data were processed

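RNA of PC3 cells was made into 6 libraries with a SMARTer mRNA-seq kit, per the labels' protocols. Partek and hg38 are named in the submitters' processing notes, and the aligner, quantifier, annotation release and scaling are steps that the sources used here do not give. The deposited values are a scaled signal and not counts: the 75th percentile was 78.99 to 79.02 in every library, and 55.4% to 64.8% of a library's values came out whole, within 0.02 reads, when divided by what 1 read is worth. Dividing each library's sum by that worth gave the estimated depth over listed genes. Genes were tested with limma 3.58.1 (R 4.3.3) on log2(value + 0.5), with trend and Benjamini-Hochberg adjustment over all 12227 genes, two-sided, and called at an adjusted p under 0.05. Fold changes on this scale understate those of low genes, and folds compare the group means of the deposited signal. The fit was tested on simulated data. Each gene list is described by counts and medians beside all listed genes. The members and lists were chosen with earlier results of these data known. By the rule for named genes, library values are given for DCAF1, the highest and lowest member of each role and members called at an absolute log2 fold change of at least 0.5, and up to 3 other replication genes per direction are named. Further members with library values, and genes that overlap a member, were added after their values were seen. Transcript length and GC came from the longest coding GENCODE 29 transcript. Alternatives were pseudocounts of 0.1 and 1, a mean of at least 5, 2 scalings, limma-voom, a replicate block, treat at a fold of 1.2, each library left out and a GC correction.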

Additional observations from a re-analysis of the deposited data

How the results depend on the processing

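Leaving out each library in turn gave 37 to 40 members higher, 0 to 2 lower and 12 to 17 other replication genes higher. In these fits 6697 to 7405 of all 12227 listed genes were called. The members' median log2 fold change was 0.22 to 0.28 over all 15 alternatives, and DCAF1 was called lower in each, at -1.01 to -0.95. Against a fold of 1.2, 10 members were higher, 2331 genes were called in all, and 7 other replication genes were higher and 1 lower, since that test asks for a larger difference. The number of members called lower, 0 as reported, was 2 (RFC1 and CHTF18) under library-size scaling and under median-of-ratios scaling, 1 (RFC1) with limma-voom and 2 (ORC3 and RFC1) after the GC correction. Of all 12227 listed genes, 3681, 3717 and 3703 were lower under library-size scaling, median-of-ratios scaling and limma-voom. The median log2 fold change over all listed genes was 0.024 in the main fit, 0.0015 under library-size scaling and -0.0010 under median-of-ratios scaling. It was 0.0025 with limma-voom and 0.0035 after the GC correction. The cause of the different counts of members called lower was not tested. With the replicate number as a replicate block, 38 members were higher and MCM7 was not called (adjusted p = 0.104). Of all 12227 listed genes, 3826 were higher and 3216 lower with that block. The labels do not say that the numbers pair libraries, so they were not taken as pairs. Deviations of same-numbered libraries from their group means had correlations of 0.026, -0.18 and -0.17. These values cannot show whether libraries were paired, because the deviations within a group sum to 0 for each gene. Signs turned for members that were not called: ORC2 without control replicate 3, CDT1 without knockdown replicate 1 or 2, POLE without knockdown replicate 2 and POLD1 without knockdown replicate 3. With each library left out in turn, the log2 fold change was -0.046 to 0.0040 for ORC2, -0.030 to 0.23 for CDT1, -0.0024 to 0.064 for POLE and -0.086 to 0.021 for POLD1. After the GC correction it was 0.055 for POLD1 and 0.039 for CHTF18. The depth behind the values is an estimate. Every listed gene reached an estimated 150 reads in at least 1 library, so a gene could be listed through 1 group alone. Genes that reached this in no library were not analysed here.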
